A study of Homo sapiens with 9 samples.

Results

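A set of 10 genes of cellular iron handling was followed in 786-O cells after depletion of ARNT or BMAL1. The genes were TFRC, FTH1, FTL, SLC40A1, SLC11A2, CP, IREB2, ACO1, NCOA4 and STEAP3, selected by name from a table of 38021 genes, in which all 10 were found. 786-O is an established human line of clear cell renal carcinoma origin. It has no functional VHL and therefore keeps HIF2α (EPAS1) at normal oxygen. ARNT is the classical dimerization partner of HIF2α, and BMAL1, listed in the files as ARNTL, is its circadian paralog. The question behind the comparisons was how much each endogenous partner contributes to transcript levels in these cells.

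All 9 libraries came from this single line, labelled wild type, that had been infected with lentivirus carrying a pLKO.1 short hairpin RNA (shRNA) and selected in puromycin. The hairpin was directed at ARNT (shARNT), at BMAL1 (shBMAL1) or at neither (shControl), with 3 libraries per group labelled as biological replicates. Each group carried 1 hairpin name, so loss of the target and any other effect of that hairpin cannot be told apart. Nothing in the sources used here says that replicates came from separate infections, so p values measure the spread between these libraries.

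Iron enters most cells on transferrin through the transferrin receptor, is reduced in endosomes, crosses into the cytosol, and is either used, stored in ferritin or exported by ferroportin. Iron regulatory proteins bind short hairpins called iron-responsive elements when iron is scarce. An element in a 3′ untranslated region (UTR) protects the transcript from decay, as in TFRC, whereas an element in a 5′ UTR blocks translation, as in the ferritins, so the level of a ferritin transcript does not report this second kind of control. The proximal tubule, from which these tumors are thought to arise, reabsorbs filtered iron.

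The elements are shown because they are the regulatory sequence that links the uptake and storage genes. A search of GENCODE UTRs on GRCh37 for a C, 5 stem bases, the loop CAGTGN with A, C or T as its last base, and 5 bases that pair with the first 5 (G-T pairs allowed) matched a 5′ UTR in 0.141% and a 3′ UTR in 0.571% of 19807 coding genes. The 10 genes held 7 matches, 4 in the 3′ UTR of TFRC and 1 each in the 5′ UTRs of FTH1, FTL and SLC40A1. The SLC40A1 match lay in 1 of its 5 coding transcripts, while each TFRC match lay in 10 of 11 and that of FTH1 in 7 of 8. Elements with other letters would be missed in these genes too, so the site numbers below count matches only. Each site is printed 5′ to 3′ as RNA-sense DNA over 29 bases, with the hexaloop in capitals.
TFRC site 1, chr3:195777850-195777878, minus strand: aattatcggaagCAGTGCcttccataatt
TFRC site 2, chr3:195777446-195777474, minus strand: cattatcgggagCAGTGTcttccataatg
TFRC site 3, chr3:195777381-195777409, minus strand: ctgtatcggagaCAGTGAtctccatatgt
TFRC site 4, chr3:195777334-195777362, minus strand: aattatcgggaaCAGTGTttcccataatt
FTH1, chr11:61735046-61735074, minus strand: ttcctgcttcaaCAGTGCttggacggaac
FTL, chr19:49468592-49468620, plus strand: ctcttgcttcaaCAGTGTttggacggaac
SLC40A1, chr2:190445387-190445415, minus strand: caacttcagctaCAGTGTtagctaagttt

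No match lay in the annotated UTRs of SLC11A2, CP, IREB2, ACO1, NCOA4 or STEAP3, which says only that these letters were not found there.

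The labels held in the data. ARNT was 2352 ± 184 normalised read counts with shControl, 1225 ± 23.2 with shARNT and 2014 ± 76.2 with shBMAL1, and ARNTL was 761 ± 32.0, 633 ± 57.8 and 326 ± 29.2 in the same order (SD, n = 3). The partner that was not targeted was lower too. ARNT was −0.23 on the log2 scale under shBMAL1 (DESeq2 adjusted p 0.0187), and ARNTL was −0.26 under shARNT (adjusted p 0.0294). For protein, the paper describes a slight increase of the remaining partner. The part of these smaller falls in the results below was not tested. Libraries held 33793045 to 35444735 reads. Reads of mitochondrial genes made up 5.46% to 7.14% of shControl, 7.59% to 8.74% of shARNT and 8.71% to 9.66% of shBMAL1 libraries, and their part in the results below was not tested. All 6 renal epithelial markers (PAX8, PAX2, KRT8, KRT18, CDH16 and LHX1) were present, with summed normalised counts of 31255 to 31794 with shControl, 34622 to 35300 with shARNT and 26222 to 29690 with shBMAL1. Within this sum, shBMAL1 had more CDH16 (2.31 on the log2 scale, DESeq2 adjusted p 1.50e-142) and PAX2 (0.43, adjusted p 0.000193) than shControl and less PAX8 (−0.49, adjusted p 1.71e-11), KRT18 (−0.40, adjusted p 8.54e-06) and LHX1 (−0.29, adjusted p 0.0781), and KRT8 was −0.13 (adjusted p 0.118). Compared with shControl, shARNT had more KRT8 (0.31, DESeq2 adjusted p 7.63e-10) and CDH16 (0.25, adjusted p 0.0926) and less LHX1 (−0.37, adjusted p 0.0151), while PAX8, PAX2 and KRT18 were not called (0.01, −0.02 and −0.05). The part of these markers in the results below was not tested. The endothelial markers PECAM1, VWF and CDH5 summed to at most 8.95, and of the leukocyte markers PTPRC was under 3 in every library and CD14 had group means of 9.72 to 10.9, while CD68 had 7395 ± 424, 7000 ± 311 and 5991 ± 706 in shControl, shARNT and shBMAL1 (SD, n = 3). CD68 was lower under shBMAL1 (−0.31, DESeq2 adjusted p 0.00152), and its part in the results below was not tested. As in any bulk sample, fewer cells that use a gene and less RNA per cell cannot be told apart.

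In shARNT against shControl, 9 of the 10 genes could be tested, of which 1 was lower (TFRC) and 4 were higher (FTH1, FTL, IREB2 and NCOA4). A gene was called at a DESeq2 adjusted p under 0.1, and by this rule 35.4% of all 15164 genes tested were called, 19% lower and 16.5% higher. In shBMAL1 against shControl, 1 of 10 was lower (TFRC) and 6 were higher (FTH1, SLC40A1, CP, IREB2, ACO1 and STEAP3), where 36.8% of 19036 genes were called, 19.4% lower and 17.4% higher. Shared shControl libraries enter both comparisons. In shBMAL1 against shARNT, 2 of 10 were lower (FTL and NCOA4) and 3 were higher (TFRC, CP and ACO1), where 35.3% of 18181 genes were called, 18% lower and 17.3% higher. The median log2 fold change of the tested genes among the 10 was 0.15, 0.17 and 0.03 in the 3 comparisons, beside 0.00, 0.02 and 0.01 over all genes tested.

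**Figure D1:**
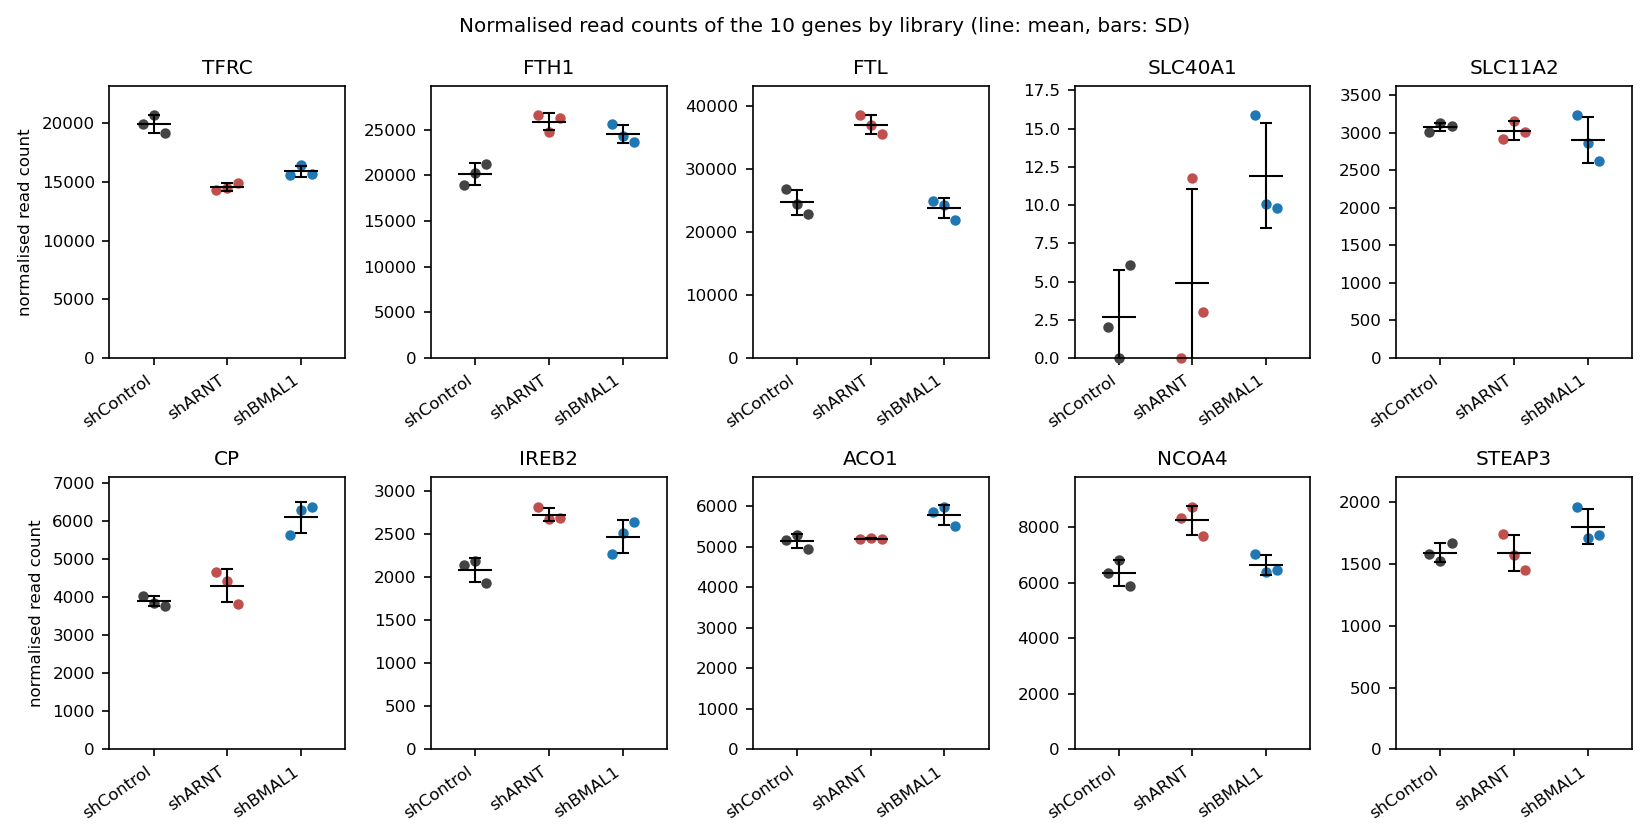
Normalised read counts (y axis, from 0) of the 10 genes in each library of shControl, shARNT and shBMAL1 (points), with the group mean (line) and SD (bars). The 3 shControl libraries sit above all others for TFRC, the 3 shARNT libraries above all others for FTL, and the 3 shBMAL1 libraries above all others for CP.

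Uptake of transferrin-bound iron was represented by TFRC (chr3:195739382-195809024, minus strand), the transferrin receptor. TFRC had 19973, 20707 and 19186 normalised read counts in the shControl libraries, 14293, 14517 and 14958 in shARNT, and 15572, 16426 and 15718 in shBMAL1. Every knockdown library was below every control library, and the shBMAL1 libraries were above the shARNT libraries. The level fell by 26.7% under shARNT (log2 fold change −0.45, SE 0.05, DESeq2 adjusted p 6.56e-19) and fell by 20.4% under shBMAL1 (−0.33, SE 0.06, adjusted p 4.10e-07). Both falls were called under all 12 alternatives, with adjusted p values up to 8.00e-13 and 0.000186. The gap between the knockdowns was small, at 0.12 (SE 0.06, DESeq2 adjusted p 0.0930). It was lost without shARNT replicate 1 (0.29), 2 (0.241) or 3 (0.139) and without shBMAL1 replicate 2 (0.281) or 3 (0.132), and its adjusted p over 12 alternatives ran from 0.0495 to 0.290. The call was also lost with the replicate number as a block (0.131), TMM size factors (0.101) and edgeR (0.214).

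STEAP3 (chr2:119981407-120023228, plus strand), an endosomal ferrireductase, reduces the iron released from transferrin. Its normalised counts were 1581, 1519 and 1669 in shControl, 1737, 1568 and 1449 in shARNT, and 1961, 1705 and 1729 in shBMAL1. The shARNT libraries surrounded the control range, and the shBMAL1 libraries lay just above it. DESeq2 gave 0.00 under shARNT (95% interval −0.16 to 0.16, adjusted p 0.996), 0.18 under shBMAL1 (SE 0.08, adjusted p 0.0982) and 0.18 between the knockdowns (adjusted p 0.121). The shBMAL1 call did not hold without shControl replicate 1 (adjusted p 0.225), 2 (0.305) or 3 (0.103) or without shBMAL1 replicate 1 (0.355, with a log2 fold change of 0.11) or 3 (0.101), with a range of 0.0710 to 0.355 over 13 alternatives. Nor did it hold with the replicate number as a block (0.175), TMM size factors (0.105) or edgeR (0.107). Conversely, the direct difference was called without shARNT replicate 1 (0.0495), under edgeR (0.0937), with at least 10 counts in 3 libraries (0.0966) and with all 9 libraries in 1 fit (0.0856), over a range of 0.0495 to 0.447. Part of the STEAP3 reads was shared with STEAP3-AS1 on the other strand, since both had fractional counts that summed to whole numbers in 9 of 9 libraries (tolerance 0.0015).

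SLC11A2 (chr12:51373184-51422349, minus strand) encodes DMT1, which moves ferrous iron out of the endosome. SLC11A2 had 3078 ± 59.0 normalised counts with shControl, 3031 ± 125 with shARNT and 2909 ± 306 with shBMAL1 (SD, n = 3), with overlapping groups in every pairing. The log2 fold change was −0.02 under shARNT (95% interval −0.13 to 0.10, DESeq2 adjusted p 0.859), −0.08 under shBMAL1 (95% interval −0.24 to 0.08, adjusted p 0.499) and −0.06 between the knockdowns (adjusted p 0.656). A fall under shBMAL1 was called only without shBMAL1 replicate 1 (−0.17, adjusted p 0.0690, over a range of 0.0690 to 0.921).

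Storage moved in the opposite direction to TFRC for the heavy chain. FTH1 (chr11:61727190-61735106, minus strand) encodes ferritin heavy chain, the ferroxidase subunit of the cage that holds iron. FTH1 had 18922, 20300 and 21249 normalised counts in shControl, 26592, 24795 and 26288 in shARNT, and 25595, 24298 and 23629 in shBMAL1. No knockdown library reached down to the control range, whereas the knockdown groups overlapped each other. FTH1 rose 1.29-fold under shARNT (log2 0.36, SE 0.05, DESeq2 adjusted p 2.95e-10) and 1.21-fold under shBMAL1 (0.28, SE 0.06, adjusted p 0.000114). The knockdowns differed by −0.08 (95% interval −0.20 to 0.04, adjusted p 0.348).

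FTL (chr19:49468566-49470136, plus strand), the ferritin light chain that supports mineralization of the iron core, parted the knockdowns. Its normalised counts were 26834, 24442 and 22882 in shControl, 38514, 36929 and 35528 in shARNT, and 24906, 24324 and 21943 in shBMAL1. All 3 shARNT libraries were above all 6 others, and the shBMAL1 and shControl libraries overlapped. FTL rose 1.5-fold under shARNT (log2 0.58, SE 0.06, DESeq2 adjusted p 4.98e-21). Under shBMAL1 the difference was −0.06 (95% interval −0.21 to 0.08, adjusted p 0.598). The direct comparison gave −0.64 (SE 0.07, adjusted p 1.07e-20) and was called under all 12 alternatives.

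Ferritin genes have many near-identical processed copies. GENCODE on GRCh37 lists 41 genes named FTH1P or FTLP, of which FTH1P18 had a row in the count table, and this row and that of the ferritin-like gene FTHL17 were 0 in all 9 libraries. How reads that match several copies were assigned was not stated, so the ferritin levels are uncertain by that amount. FTH1 and FTL together took 0.128% ± 0.00364 of the reads with shControl, 0.182% ± 0.00558 with shARNT and 0.141% ± 0.00530 with shBMAL1 (SD, n = 3).

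NCOA4 (chr10:51565199-51590734, plus strand), the receptor that delivers ferritin to autophagosomes so that its iron is released, was likewise highest under shARNT. NCOA4 had 6349, 6813 and 5893 normalised counts in shControl, 8316, 8742 and 7683 in shARNT, and 7039, 6387 and 6469 in shBMAL1. The shARNT libraries were above all others and the shBMAL1 and shControl libraries overlapped. Its log2 fold change was 0.38 under shARNT (SE 0.06, DESeq2 adjusted p 7.13e-08) and 0.06 under shBMAL1 (95% interval −0.08 to 0.20, adjusted p 0.600). Directly compared, shBMAL1 was lower than shARNT (−0.32, SE 0.07, adjusted p 6.27e-05).

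**Figure D2:**
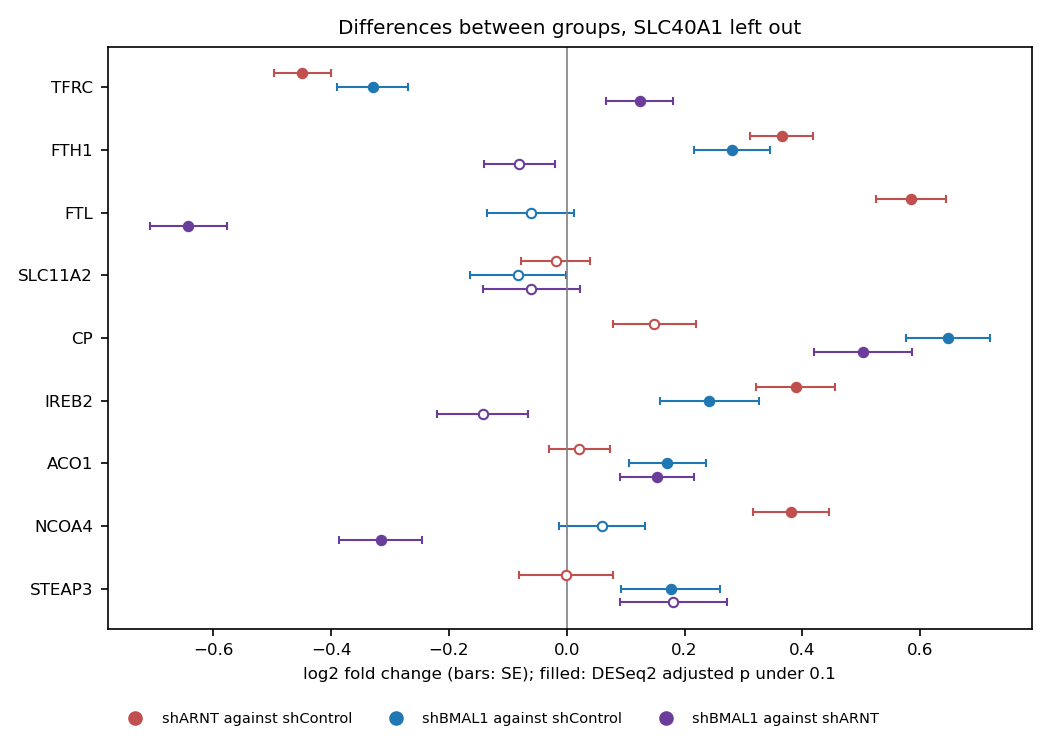
Log2 fold changes (x axis) of 9 genes in the comparisons of each knockdown with shControl and of shBMAL1 with shARNT, with SE as bars and filled points for a DESeq2 adjusted p under 0.1. TFRC lies left of 0 in both knockdowns, FTL and NCOA4 have filled points right of 0 under shARNT alone, and CP lies farthest right under shBMAL1.

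CP (chr3:148880197-148939616, minus strand) encodes ceruloplasmin, a copper ferroxidase, mostly secreted, that oxidizes iron as ferroportin exports it. CP had 4033, 3851 and 3774 normalised counts in shControl, 4661, 4417 and 3816 in shARNT, and 5631, 6277 and 6375 in shBMAL1. Every shBMAL1 library was above every other library, and the shARNT and shControl libraries overlapped. CP rose 1.57-fold under shBMAL1 (log2 0.65, SE 0.07, DESeq2 adjusted p 2.45e-18) and was 0.50 higher than in shARNT (SE 0.08, adjusted p 2.15e-08). Under shARNT the difference was 0.15 (SE 0.07, adjusted p 0.101), and it was called without shARNT replicate 3 (0.23, adjusted p 0.00398, over a range of 0.00398 to 0.462). Without shARNT replicate 1 it was 0.09 (adjusted p 0.462).

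CP overlaps HPS3 on the opposite strand, and their fractional counts summed to whole numbers in 9 of 9 libraries (tolerance 0.0015). HPS3 had 10163 ± 437 normalised counts with shControl, 10333 ± 368 with shARNT and 11208 ± 322 with shBMAL1 (SD, n = 3). HPS3 was itself called higher under shBMAL1 (0.14, DESeq2 adjusted p 0.0711). With the reads of both genes added, an alternative chosen after the data were seen, the shBMAL1 log2 fold change was 0.30 (adjusted p 6.10e-06) and the direct one 0.24 (adjusted p 0.000268). Under shARNT the sum gave 0.06 (adjusted p 0.393). Most reads of this sum are those of HPS3. The sum of the hepatocyte markers also differed between groups, but under shARNT it was lower than in shControl, whereas CP was not. ALB, APOA1, TTR, SERPINA1, APOB and FGB summed to 5456 to 5692 normalised counts with shControl, 2389 to 2599 with shARNT and 10174 to 12500 with shBMAL1. SERPINA1 made up nearly all of this, at 5560 ± 120, 2489 ± 107 and 11192 ± 1176 (SD, n = 3), while APOA1 and APOB were under 3 in all 9 libraries. FGB was 1.67 ± 1.53, 3.29 ± 2.31 and 45.3 ± 2.31 in the same order, and was called higher under shBMAL1 (DESeq2 adjusted p 6.62e-09). ALB had group means of 1.01 to 2.35, and TTR was 0 in every shControl library, with means of 0.974 in shARNT and 2.99 in shBMAL1. The part of these markers in the CP result was not tested.

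SLC40A1 (chr2:190425316-190448484, minus strand), which encodes ferroportin, the iron exporter, was barely detected. Its read counts were 2, 0 and 6 in shControl, 0, 12 and 3 in shARNT, and 16, 10 and 10 in shBMAL1, beside a floor of 3 counts per library. The shBMAL1 libraries were above the shControl libraries and overlapped those of shARNT. DESeq2 called it higher under shBMAL1 (log2 2.15, SE 0.93, adjusted p 0.0631), a fitted value that depends on a control group near 0 and that was 1.56 without shControl replicate 2 and 3.57 without shControl replicate 3. The call was lost without shControl replicate 1 (adjusted p 0.162) or 2 (0.22) and without shBMAL1 replicate 1 (0.255), 2 (0.132) or 3 (0.123), over a range of 0.0166 to 0.255. The direct comparison gave 1.27 (SE 0.88, adjusted p 0.305), and 0.68 without shARNT replicate 1. Under shARNT it was below the depth at which DESeq2 gives an adjusted p.

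The 2 sensors of cytosolic iron came next. IREB2 (chr15:78729773-78793795, plus strand) encodes IRP2, the iron regulatory protein that is degraded when iron is plentiful. IREB2 had 2140, 2189 and 1929 normalised counts in shControl, 2817, 2670 and 2689 in shARNT, and 2263, 2512 and 2636 in shBMAL1. The groups did not overlap, with shControl lowest and shARNT highest. IREB2 rose by 0.39 on the log2 scale under shARNT (SE 0.07, DESeq2 adjusted p 9.96e-08) and by 0.24 under shBMAL1 (SE 0.08, adjusted p 0.0150). The second call was lost without shControl replicate 3 (adjusted p 0.134) or shBMAL1 replicate 3 (0.105), over a range of 0.00141 to 0.134. Between the knockdowns the difference was −0.14 (adjusted p 0.163), which was called only without shBMAL1 replicate 3 (−0.19, adjusted p 0.0741, over a range of 0.0741 to 0.453).

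ACO1 (chr9:32384601-32454767, plus strand) encodes IRP1, which is a cytosolic aconitase when it holds an iron-sulfur cluster. ACO1 had 5169, 5295 and 4951 normalised counts in shControl, 5203, 5221 and 5182 in shARNT, and 5865, 5993 and 5514 in shBMAL1. Only the shBMAL1 libraries stood above the others. The difference was 0.02 under shARNT (95% interval −0.08 to 0.12, adjusted p 0.818), 0.17 under shBMAL1 (SE 0.07, DESeq2 adjusted p 0.0316) and 0.15 between the knockdowns (SE 0.06, adjusted p 0.0479). The shBMAL1 call was lost without shControl replicate 1 (adjusted p 0.1) or 3 (0.168) or shBMAL1 replicate 2 (0.135), over a range of 0.00977 to 0.168. The direct call was lost without shARNT replicate 1 (0.141), 2 (0.139) or 3 (0.155) or shBMAL1 replicate 2 (0.189), over a range of 0.0240 to 0.189.

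Ratios of 2 genes within a library do not depend on scaling between libraries. The TFRC to FTH1 ratio of read counts was 1.06, 1.02 and 0.903 in shControl, 0.538, 0.586 and 0.569 in shARNT, and 0.608, 0.676 and 0.665 in shBMAL1. The 3 groups did not overlap, and the log2 ratio differed from shControl by −0.81 in shARNT and −0.61 in shBMAL1. Each exact two-sided permutation p was 0.1, the smallest that 3 against 3 libraries allow. The FTH1 to FTL ratio had geometric means of 0.816 with shControl, 0.7 with shARNT and 1.03 with shBMAL1. It was higher in every shBMAL1 library than in any other (0.34 on the log2 scale against shControl and 0.56 against shARNT, exact permutation p 0.1 each), and shARNT overlapped shControl (−0.22, exact permutation p 0.2, and −0.13 without shControl replicate 3). The IREB2 to ACO1 ratio was 0.406, 0.524 and 0.426. It was higher in shARNT than in shControl (0.37, exact permutation p 0.1), lower in shBMAL1 than in shARNT (−0.30, exact permutation p 0.1), and overlapped between shBMAL1 and shControl (0.07, exact permutation p 0.5). That last difference was 0.14 without shBMAL1 replicate 1, 0.04 without shControl replicate 3 and −0.01 without shBMAL1 replicate 3. In all, 9 ratio comparisons were made, and none can pass 0.05.

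**Figure D3:**
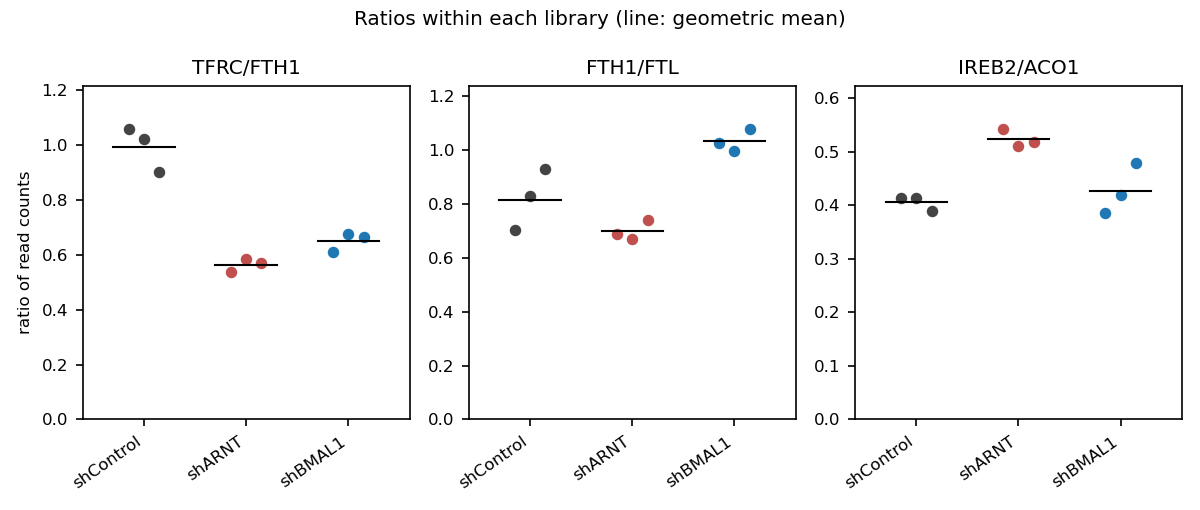
Ratios of read counts within each library (y axis, from 0) for TFRC to FTH1, FTH1 to FTL and IREB2 to ACO1, with points for libraries and lines for geometric means. The TFRC to FTH1 ratio lies near 1 in shControl and between 0.538 and 0.676 in the 6 knockdown libraries.

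Levels of different genes were compared per kilobase of the GENCODE MANE Select transcript. In shControl FTL came first with 28381 ± 2286 normalised counts per kilobase, followed by FTH1 with 16756 ± 973, TFRC with 3982 ± 152, NCOA4 with 1835 ± 133 and CP with 873 ± 29.9 (SD, n = 3). SLC11A2 (745 ± 14.3), ACO1 (690 ± 23.4), STEAP3 (373 ± 17.8), IREB2 (330 ± 21.9) and SLC40A1 (0.809 ± 0.928) followed, and the ranges of neighbors did not overlap. In shARNT IREB2, at 431 ± 12.7 per kilobase, passed STEAP3, at 372 ± 34. In shBMAL1 ACO1 (778 ± 33.3) came before SLC11A2 (704 ± 74.1), but these neighbors overlapped, as did STEAP3 and IREB2.

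**Figure D4:**
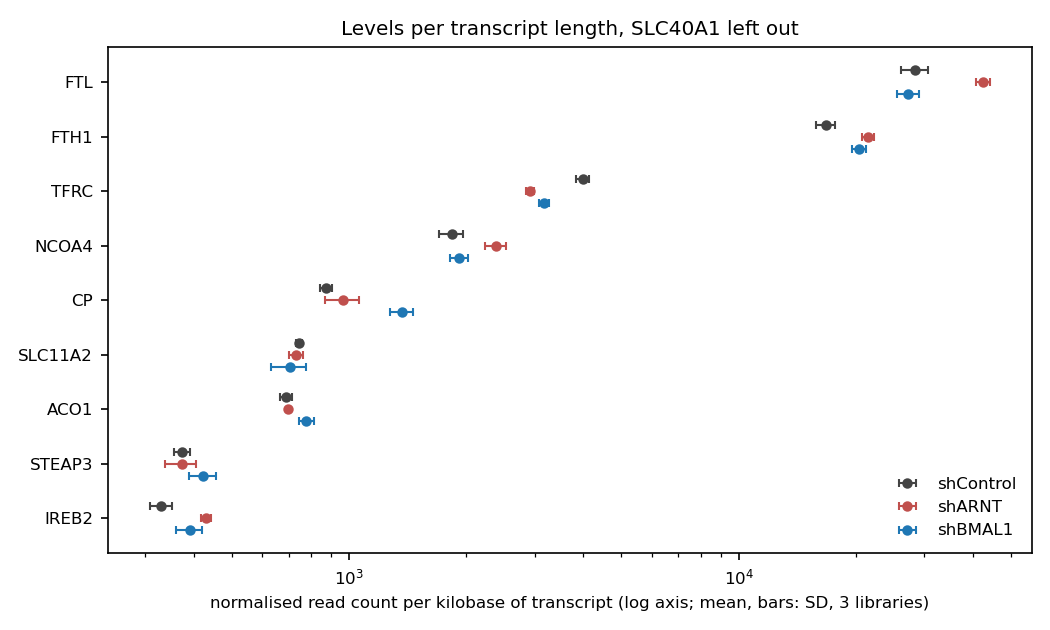
Normalised read counts per kilobase of transcript (x axis, log scale) of 9 genes as group mean and SD over 3 libraries. The ferritins FTL and FTH1 lie at 16756 per kilobase or more in each group, and TFRC lies between 2911 and 3982.

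A further 42 genes of iron handling, chosen by role, were counted in the same way. Under shARNT 33 were tested, with 10 lower and 6 higher (median log2 −0.02), and under shBMAL1 35 were tested, with 7 lower and 7 higher (median 0.00). In shBMAL1 against shARNT 9 were lower and 9 higher of 35. The shares called, 48.5%, 40% and 51.4% of those tested, stand beside the 35.4%, 36.8% and 35.3% of all genes given above. Among the 9 genes of uptake and reduction 7 were tested, of which 3 were lower and 1 higher under shARNT, and 2 were lower and 2 higher under shBMAL1. The share called, 57.1% of these 7 in each knockdown, stands beside 35.4% and 36.8% of all genes tested. SLC39A14, a metal importer that takes up iron not bound to transferrin, went from 3880 ± 94.0 normalised counts in shControl to 2388 ± 93.6 in shARNT (−0.70, DESeq2 adjusted p 1.83e-30) and 3217 ± 292 in shBMAL1 (−0.27, adjusted p 0.00207). Its relative SLC39A8 turned in opposite directions, with −0.54 (adjusted p 3.25e-11) when ARNT was depleted, 0.34 (adjusted p 0.000424) when BMAL1 was, and a direct difference of 0.88 (adjusted p 2.95e-22). STEAP1, of the same family as STEAP3, fell in each knockdown (−0.69 with adjusted p 0.000656 under shARNT, −0.58 with adjusted p 0.00342 under shBMAL1). TF, transferrin itself, lay outside the naming rule and was chosen after its values were seen. Its normalised counts were 12.4 ± 3.23 with shControl, 30.5 ± 5.18 with shARNT and 85.9 ± 19.8 with shBMAL1, and it was called higher under both (1.30, adjusted p 0.0276, and 2.79, adjusted p 4.37e-12).

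Haem genes gave 1 lower and 3 higher of 7 under shARNT, where 19% of all genes tested were lower and 16.5% higher, and 3 lower and 1 higher under shBMAL1, where 19.4% were lower and 17.4% higher. SLC48A1, which carries haem out of the endolysosome, rose from 323 ± 29.1 normalised counts in shControl to 1061 ± 31.3 in shARNT (1.72, DESeq2 adjusted p 4.72e-64) and 485 ± 54.0 in shBMAL1 (0.59, adjusted p 6.41e-05). HMOX1, the inducible haem oxygenase that frees iron from haem, rose under shARNT (1.14, adjusted p 2.57e-23) from 364 ± 10.6 to 801 ± 88.2. Under shBMAL1 HMOX1 was 434 ± 59.4 (0.25, adjusted p 0.142), and the direct difference was −0.89 (adjusted p 2.15e-11). ABCG2, an exporter of drugs and porphyrins, fell to 48.0 ± 6.90 under shBMAL1 from 140 ± 6.37 (−1.54, adjusted p 1.54e-09). FLVCR1, described as a haem exporter, also fell there (−0.57, adjusted p 4.09e-07).

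Of 12 genes of mitochondrial iron import and iron-sulfur cluster assembly, 3 were lower and 2 higher under shARNT, and 1 was lower and 2 higher under shBMAL1. These shares called, 41.7% and 25%, stand beside 35.4% and 36.8% of all genes tested. ISCU, the scaffold on which clusters are built, rose under both (0.51, DESeq2 adjusted p 1.84e-08, and 0.30, adjusted p 0.000758). FBXL5, the ligase subunit that senses iron and marks IRP2 for degradation, was called higher under shBMAL1 (0.19, adjusted p 0.0544) and had 0.11 under shARNT (adjusted p 0.148). Of 3 storage and chaperone genes 2 were tested, of which PCBP1 was lower under shARNT (−0.12, adjusted p 0.0740), and none was called under shBMAL1. Of 5 genes of export, ferroxidase activity and hepcidin control, HEPH, HAMP, HFE2 and BMP6 were too low to be tested in any comparison, and TMPRSS6 was tested in shBMAL1 against shControl (0.30, adjusted p 0.903) and in the direct comparison (0.02, adjusted p 0.996). Among 5 other transcripts described as carrying an iron-responsive element, 4 were tested under shARNT, with 2 lower. Under shBMAL1 5 were tested, with 1 lower and 1 higher. These shares called, 50% and 40%, stand beside the same 35.4% and 36.8% of all genes tested. EPAS1, which belongs to this group, fell under shARNT (−0.23, adjusted p 0.000563) and was −0.06 under shBMAL1 (adjusted p 0.546). The UTR search described above had no match in EPAS1.

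**Figure D5:**
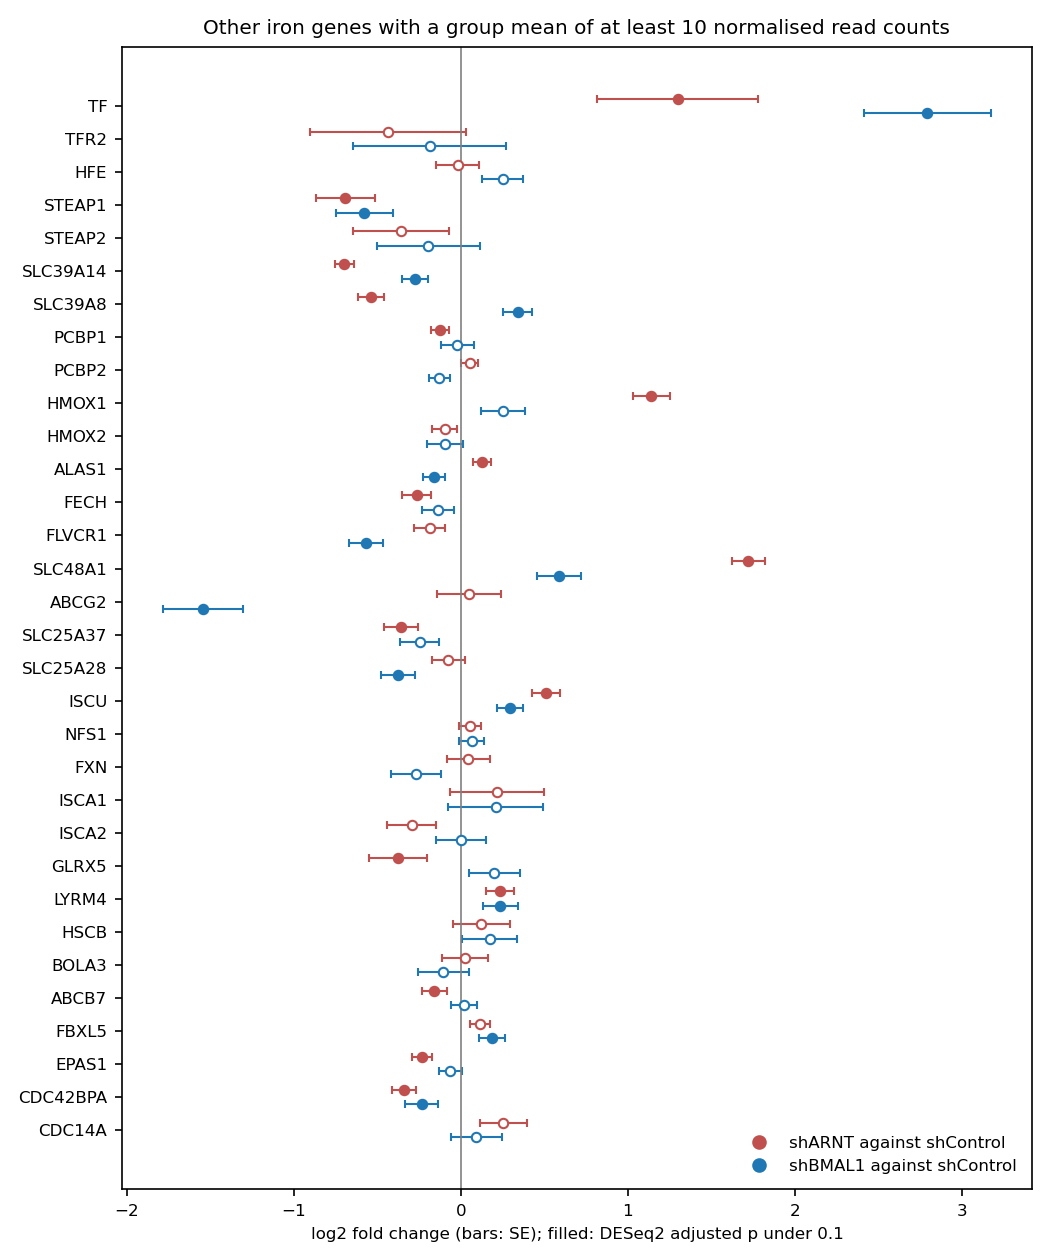
Log2 fold changes (x axis) of 32 other iron genes with a group mean of at least 10 normalised counts, ordered by role, in shARNT and shBMAL1 against shControl, with SE as bars and filled points for a DESeq2 adjusted p under 0.1. SLC48A1 lies farthest right under shARNT, TF lies farthest right under shBMAL1, and ABCG2 lies farthest left under shBMAL1.

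Windows from 250 bases before to 50 after the start of each gene (RefSeq, GRCh38.p14) were searched on both strands for ACGTG and GCGTG, the core letters of sites bound by HIF with ARNT, and for CACGTG, the E-box that BMAL1 binds with CLOCK, which contains ACGTG. Entries were matched for 8 of the 10 genes, all but FTH1 and CP. ACGTG was found in 21.4%, GCGTG in 36.5% and CACGTG in 7.26% of all 35116 windows, and ACGTG or GCGTG in 48.4%. ACGTG occurred in TFRC and FTL, GCGTG in FTL, ACO1, SLC11A2 and IREB2, and CACGTG in none of the 8. SLC11A2, IREB2 and NCOA4 had several windows, and a gene was counted when any of its windows matched. GCGTG was absent from part of the SLC11A2 and IREB2 windows, so these genes are not directly comparable with shares of windows. The 100 bases with the ACGTG of the TFRC window and of the FTL window are shown, since TFRC fell in both knockdowns and FTL parted them. Capitals mark the motif, which in FTL lies on the other strand and reads CACGT, and no binding was measured here.
TFRC, chr3:196082091-196082190, minus strand: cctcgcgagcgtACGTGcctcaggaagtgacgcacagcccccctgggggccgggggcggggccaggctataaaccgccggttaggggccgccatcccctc
FTL, chr19:48965209-48965308, plus strand: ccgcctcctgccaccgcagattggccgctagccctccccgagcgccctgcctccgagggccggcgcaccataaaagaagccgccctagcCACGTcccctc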

How the data were processed

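RNA of 786-O cells was sequenced as 9 stranded mRNA libraries. The authors deposited estimated counts of reads per gene. Per the study methods, SeqMan NGen 17 aligned the reads to GRCh37 and ArrayStar 17 counted them, whereas the labels' processing notes name hg38, STAR and DESeq2 without a role. The counting's annotation and strand setting were not given in the sources used here. The table has no coordinates, so gene positions are those of GENCODE on GRCh37. A value of 0.009 stood for 0 and was set to 0, fractional values (6.14% of the others) were rounded, and 53 rows that shared a name were added up.

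Groups came from the sample labels. Each comparison was fitted across all genes in DESeq2 1.42.0 (R 4.3.3) on its 6 libraries, with the Wald test, independent filtering and Benjamini-Hochberg adjustment, and called at an adjusted p under 0.1, as in the study. All tests are two-sided, and SE and 95% intervals are those of the fit. Normalised counts were divided by size factors over all 9 libraries. Fits were checked on simulated counts. Libraries of 1 group differed by more than sampling noise (chi-square per degree of freedom 7.60 to 17.6), so none was a copy. Alternatives were edgeR 4.0.16 with TMM, TMM size factors, a minimum of 10 counts in 3 libraries, an adjusted p under 0.05, 1 fit of all libraries, the replicate number as a block, ferritin pseudogene rows added, overlapping genes added, and each library left out.

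The members and gene lists were chosen with earlier results of these data known. Besides them, the text names ARNT and ARNTL, HMOX1, FBXL5, EPAS1 and HEPH, and for each knockdown the 3 most lowered and 3 most raised other iron genes that were called and averaged 50 or more normalised counts. TF, PCBP1, TMPRSS6 and genes sharing reads with members were named after their values were seen. A gene that the rule names is not reported here.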

Additional observations from a re-analysis of the deposited data

How the results depend on the processing

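The number of the 10 genes called under shBMAL1, 7 as reported, was 4 to 6 when single libraries were left out (4 without shControl replicate 1 or 3 or shBMAL1 replicate 3), and in the direct comparison, 5 as reported, it was 3 to 5 (3 without shARNT replicate 2 or 3 or shBMAL1 replicate 2). Under shARNT it was 5 or 6 in every alternative. Across alternatives, TFRC, FTH1, FTL, IREB2 and NCOA4 under shARNT, TFRC, FTH1 and CP under shBMAL1, and FTL, NCOA4 and CP in the direct comparison were called in the same direction each time. For CP the alternatives include the sum with HPS3, in which most reads are those of HPS3. Over all alternatives but the added ferritin pseudogene rows, which were 0 in all 9 libraries and could change nothing, 304 log2 fold changes of the 10 genes kept their direction and side of the threshold, 34 lost a call and 8 gained one. The direction reversed for 8 values near 0 that were not called. SLC11A2 ran from −0.0503 to 0.00817 under shARNT and from −0.142 to 0.00710 in the direct comparison, and ACO1 from −0.00611 to 0.0433 and STEAP3 from −0.0726 to 0.0607 under shARNT, when libraries were left out. STEAP3 under shARNT was 0.000816 with at least 10 counts in 3 libraries and 0.0184 with STEAP3-AS1 added. Under edgeR, STEAP3 under shBMAL1 (adjusted p 0.107) and TFRC (0.214) and ACO1 (0.117) in the direct comparison lost their calls, while CP under shARNT (0.0919) and STEAP3 in the direct comparison (0.0937) gained one. The IREB2 to ACO1 ratio of shBMAL1 against shControl, 0.07 on the log2 scale, ran from −0.0120 to 0.143 when libraries were left out. The other iron genes called numbered 11 to 16, 12 to 18 and 12 to 18 in the 3 comparisons.

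Replicate numbers did not pair the libraries, since correlations of same-numbered deviations ran from −0.154 to 0.105. With the replicate block, 5, 6 and 4 of the 10 genes were called. A ratio of CP to SLC40A1 was planned and not run, since SLC40A1 had 0 reads in 2 libraries. Of the 10 genes, only SLC40A1 was near the floor of 3 counts. The alternative with overlapping genes added was chosen after the data were seen.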
